A study of Homo sapiens with 12 samples.

Results

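The cytosolic heat shock proteins considered here are 10 genes, HSPA1A, HSPA1B, HSPA8, HSPA4L, HSPH1, HSP90AA1, HSP90AB1, HSPB1, CRYAB and DNAJB1, among 19775 genes named by the array's annotation. They were taken by name from a list that was drawn up with earlier results of these data known, and where a gene had several probe sets, the brightest on average across the 12 arrays stands for it. For 7 of the 10 genes that probe set is annotated with the gene alone. HSPA1A and HSPA1B have only probe sets that they share, and HSPA8 has only probe sets that also carry the small nucleolar RNA genes SNORD14C and SNORD14D, so these 3 genes are described through shared probe sets. The 10 genes are covered by 23 probe sets in all, and each of the 23 was above a log2 value of 4 on all 12 arrays.

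The study measured gene expression on arrays in HK-2, an immortalised line of human proximal tubule epithelial cells, after exposure to CsA (the usual abbreviation of cyclosporine A, a calcineurin inhibitor whose use is limited by kidney toxicity) or to the control vehicle. The 4 groups of 3 arrays each were control at 12 h, CsA at 12 h, control at 48 h and CsA at 48 h, with arrays numbered 1 to 3 within each group as biological replicates of a single laboratory. All groups were kept in the same medium, which contained EGF, hydrocortisone, insulin, transferrin and selenite, and were treated near confluence one day after seeding. The labels used here name neither the dose of CsA nor the vehicle, and the series as a whole set out to find expression signatures of nephrotoxic compounds.

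Cytosolic heat shock proteins are chaperones that bind unfolded or partly folded proteins and either keep them from aggregating or help them fold. Hsp70 proteins (HSPA) work in cycles with J-domain partners such as DNAJB1, which deliver substrates, and with Hsp110 proteins (HSPH1, HSPA4L), which exchange the bound nucleotide. Hsp90 proteins complete the folding of kinases and steroid receptors, while the small heat shock proteins HSPB1 and CRYAB hold unfolded proteins without using ATP. Many of these genes are switched on by the heat shock factor HSF1, which binds repeats of a short unit in their promoters, and in the kidney tubule HSPA1A and HSPB1 are known to be induced by injury.

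The array values are log2 intensities after GCRMA normalization by the authors, so a difference of 1 is a doubling. They are compared here between arrays for the same probe set, never between genes, because probe sets differ in how strongly they bind. A difference was called when its adjusted p in limma, over all 10508 genes tested, was below 0.05. For changes between the times, fell and rose are used below for called differences only. Replicates within a group correlated at 0.997 or more at 12 h and at no less than 0.991 in control and 0.982 with CsA at 48 h, and the median SD of a gene was 0.12 in both 12 h groups, 0.21 in control at 48 h and 0.28 with CsA at 48 h. Of the markers of the labelled cell type, all 6 general epithelial genes (among them KRT8, KRT18 and EPCAM) were above 4 on all 12 arrays, whereas 0 of 9 proximal tubule genes (among them LRP2, CUBN and AQP1) was above 4 on any array. None of 3 leukocyte markers exceeded 4, and COL1A1, DCN and LUM of 5 fibroblast markers did so on all 12 arrays. The mean of that fibroblast list was 6.32 in control and 6.28 with CsA at 12 h, and 6.17 and 6.08 at 48 h, and its part in the results was not tested.

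The promoters of the members are shown because their best known shared input is HSF1. RefSeq promoter windows (GRCh38.p14, 250 bases before to 50 bases after a start) were found for 9 of the 10 genes, all but CRYAB. They were searched for the inverted units GAANNTTC and TTCNNGAA, each of which reads the same on both strands, and for the overlapping runs of 3 units GAANNTTCNNGAA and TTCNNGAANNTTC. At least 1 inverted unit was present for 8 of the 9 genes, against 16.2% of all genes with a window, and HSPH1 had none. A match in these letters is a description and not a binding site. The stretches of these 8 genes run 5′ to 3′ on the gene's own strand, with the matching letters in capitals.
HSPA1A, chr6:31815392-31815489, plus strand: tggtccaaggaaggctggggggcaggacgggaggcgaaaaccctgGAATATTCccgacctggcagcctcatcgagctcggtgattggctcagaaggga
HSPA1B, chr6:31827588-31827685, plus strand: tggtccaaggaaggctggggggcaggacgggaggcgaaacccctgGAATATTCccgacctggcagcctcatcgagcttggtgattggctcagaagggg
HSPB1, chr7:76302446-76302543, plus strand: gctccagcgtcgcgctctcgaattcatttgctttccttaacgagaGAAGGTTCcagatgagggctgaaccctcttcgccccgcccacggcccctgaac
HSPA4L, chr4:127782141-127782170, plus strand: tttccagatctTTCTCGAAcccgcagcttc
HSP90AB1, chr6:44247770-44247798, plus strand: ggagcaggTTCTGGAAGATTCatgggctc
HSP90AB1, chr6:44247823-44247851, plus strand: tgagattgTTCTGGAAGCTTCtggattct
HSPA8, chr11:123062346-123062374, minus strand: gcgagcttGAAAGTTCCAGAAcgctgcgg
HSPA8, chr11:123062171-123062199, minus strand: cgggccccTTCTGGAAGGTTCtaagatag
HSP90AA1, chr14:102087104-102087133, minus strand: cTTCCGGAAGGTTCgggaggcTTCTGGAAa
DNAJB1, chr19:14518456-14518485, minus strand: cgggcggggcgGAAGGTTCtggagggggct
DNAJB1, chr19:14518426-14518455, minus strand: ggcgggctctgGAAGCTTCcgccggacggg

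The promoter windows of HSPA1A and HSPA1B had the same base at 277 of 299 compared positions (92.6%), and in both the unit GAATATTC lay before the start, its first base at -106 in HSPA1A and at -105 in HSPA1B. Runs of 3 units were present for HSP90AB1, HSPA8 and HSP90AA1, 3 of the 9 genes, against 0.608% of all genes. Outside the members, 16.2% of the 1172 tested genes with an inverted unit were called lower at 48 h than at 12 h in control cells. The share was 22.2% (8 genes) of the 36 with a run of 3 and 13.6% of the 7518 with a window but no unit. In the same order, 11.9%, 11.1% and 12.5% were called higher, and the median differences were -0.006, -0.066 and 0.012. With CsA, 8.11%, 16.7% and 7.58% were called lower and 5.89%, 5.56% and 6.88% higher. Whether the units go with the change was not tested.

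Across the 10 genes the main difference lay between the times and not between CsA and control. Of the 7 members with a probe set of their own, HSP90AA1, HSP90AB1 and DNAJB1 were called lower at 48 h than at 12 h in control cells and CRYAB higher. With CsA, HSP90AA1, HSP90AB1, DNAJB1 and HSPH1 were called lower and none was called higher. CRYAB was higher by 0.33 with CsA, which was not called. The shared probe sets of HSPA1A and HSPA1B fell by about 2 on the log2 scale, the farthest of the 10 genes. No member was called between CsA and control at either time.

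**Figure D1:**
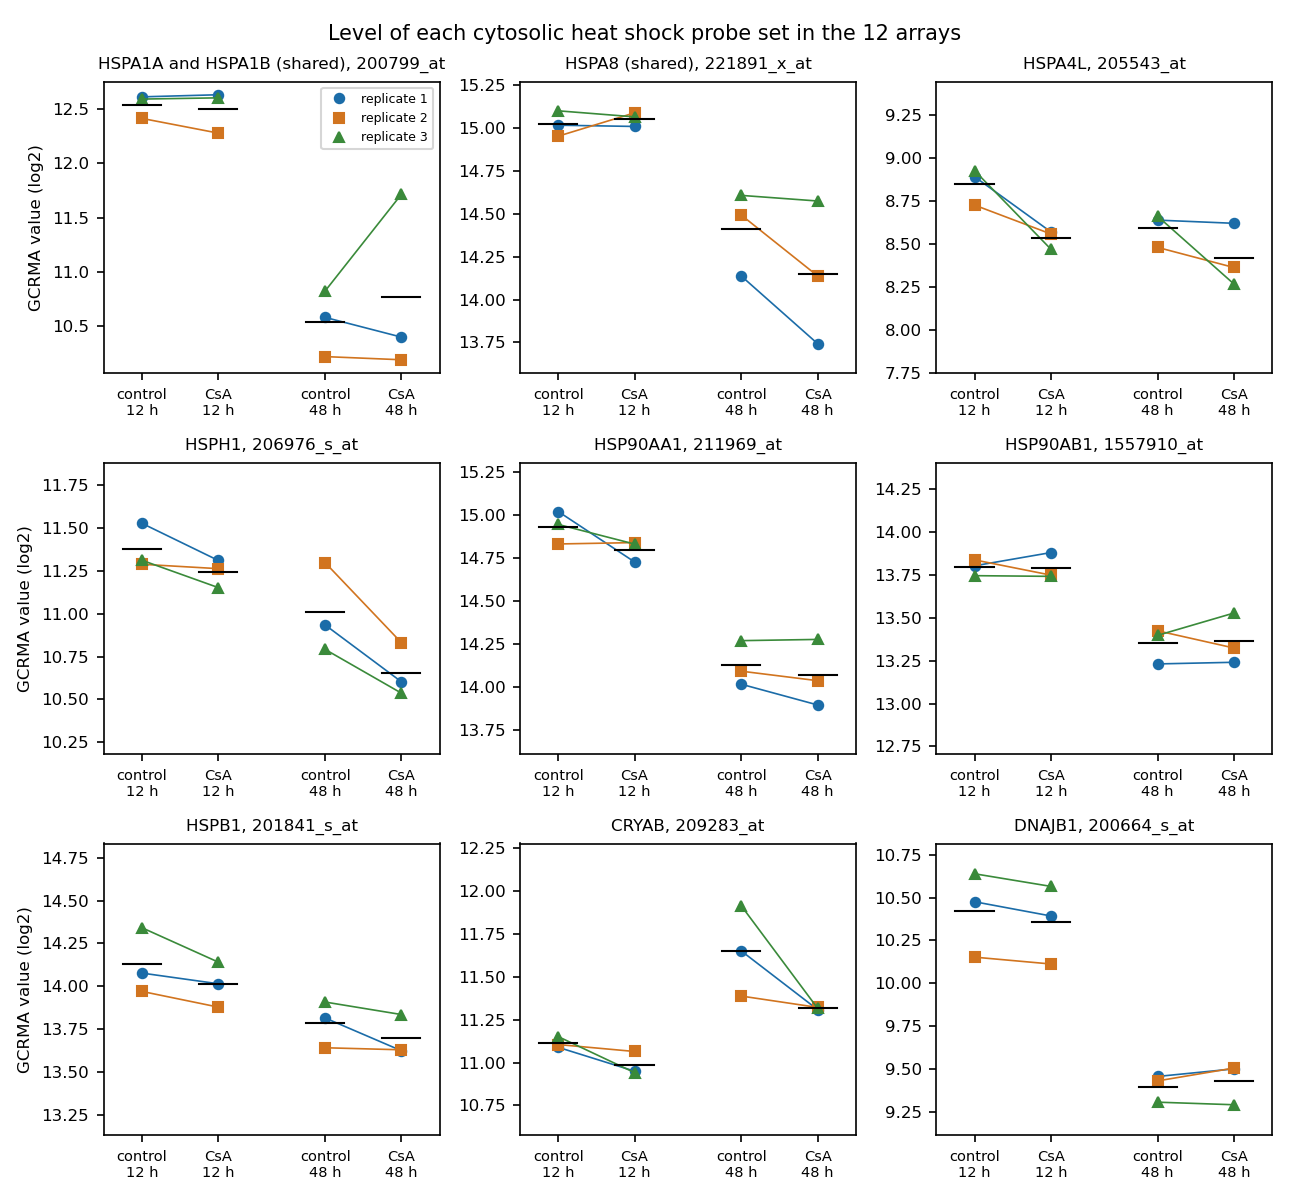
Log2 array value (vertical axis, a range of its own in each panel) of the chosen probe set of each member in the 4 groups. Points are arrays, thin lines join the CsA and control array of the same number and time, and black bars are group means; in all panels but CRYAB the 48 h means lie below the 12 h means of the same treatment, and the HSPA1A and HSPA1B panel shows the array CsA 48 h replicate 3 at 11.71, above the other 48 h arrays.

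HSPA1A and HSPA1B encode the stress-inducible Hsp70 proteins, which differ by very few residues. Their shared probe set 200799_at read 12.61, 12.41 and 12.59 in control and 12.63, 12.28 and 12.60 with CsA at 12 h. At 48 h the same probe set read 10.58, 10.22 and 10.82 in control and 10.40, 10.19 and 11.71 with CsA. Every 48 h array lay below every 12 h array, and the order of the group means was control at 12 h, CsA at 12 h, CsA at 48 h and control at 48 h. The 2 treatments did not differ beyond the spread at either time. The 48 h level was lower by 2.00 in control (SE 0.33, adjusted p = 0.0043, a ratio of 3.99 between 12 h and 48 h), and with CsA it was lower by 1.73 (SE 0.33, adjusted p = 0.013, limma over 21028 probe sets). Leaving out CsA 12 h replicate 1 ended the call with CsA (adjusted p = 0.051), as did leaving out CsA 12 h replicate 3 (0.054), any numbered pair at 12 h (0.084, 0.061 and 0.088) or the first pair at 48 h (0.056).

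The other shared probe sets of this gene pair moved alike. On 200800_s_at, which also carries HSPA1L, the change from 12 h to 48 h was -2.29 in control (adjusted p = 0.0015) and -2.00 with CsA (adjusted p = 0.0053). On 202581_at it was -2.00 (adjusted p = 0.0014) and -1.77 (adjusted p = 0.0045). The share of each of the near-identical genes in these values cannot be told apart, nor, in RNA from whole wells, can less RNA per cell be told from fewer cells that express the genes.

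CsA did not move the HSPA1A and HSPA1B probe set by a size these arrays could call. CsA minus control was -0.03 at 12 h (95% interval -0.78 to 0.71) and 0.23 at 48 h (-0.51 to 0.97), with adjusted p = 1 and 0.9997 in limma. By numbered pair CsA minus control gave 0.02, -0.14 and 0.01 at the earlier time, and -0.18, -0.03 and 0.89 at the later one. The third pair at 48 h stood apart from the other pairs, and without CsA 48 h replicate 3 the 48 h difference was -0.25.

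HSPA8 encodes the constitutive Hsp70, which folds new proteins in unstressed cells. Its shared probe set 221891_x_at read 15.02, 14.95 and 15.10 in control and 15.01, 15.09 and 15.07 with CsA at 12 h. At 48 h it read 14.14, 14.49 and 14.61 in control and 13.74, 14.14 and 14.57 with CsA. All 48 h arrays were below all 12 h arrays, and the 48 h arrays were spread more widely. The change was -0.61 in control (SE 0.19, adjusted p = 0.044) and -0.90 with CsA (SE 0.19, adjusted p = 0.018). The control call was lost without control 12 h replicate 1, 2 or 3 (adjusted p = 0.10, 0.087 and 0.12) or control 48 h replicate 1 or 2 (0.15 and 0.087), and the CsA call without CsA 12 h replicate 1, 2 or 3 (0.057, 0.061 and 0.065) or CsA 48 h replicate 2 (0.0503). The remaining 3 HSPA8 probe sets changed by more, from -1.08 to -1.20 in control and from -1.10 to -1.23 with CsA, and all were called. CsA minus control was 0.03 at 12 h (-0.39 to 0.46) and -0.26 at 48 h (-0.69 to 0.16) on the chosen probe set.

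DNAJB1 is the J-domain partner that hands substrates to the inducible Hsp70. Its probe set 200664_s_at read 10.48, 10.15 and 10.64 in control and 10.39, 10.11 and 10.57 with CsA at 12 h, then 9.46, 9.43 and 9.31 in control and 9.50, 9.51 and 9.29 with CsA at 48 h. The times did not overlap in either treatment, and the treatments overlapped at both times. DNAJB1 fell by 1.02 in control (SE 0.15, adjusted p = 0.0022, a ratio of 2.03 between 12 h and 48 h) and by 0.92 with CsA (SE 0.15, adjusted p = 0.0059, a ratio of 1.90). Its second probe set, 200666_s_at, gave -1.03 and -0.91. CsA minus control was -0.07 at 12 h (-0.40 to 0.27) and 0.03 at 48 h (-0.30 to 0.37). With the replicate number as a block, these intervals were -0.22 to 0.09 and -0.12 to 0.19.

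The Hsp110 genes, which act as nucleotide exchange factors for Hsp70, moved less. HSPH1 (206976_s_at) read 11.53, 11.29 and 11.31 in control and 11.31, 11.26 and 11.15 with CsA at 12 h. At 48 h it read 10.93, 11.30 and 10.79 in control and 10.60, 10.83 and 10.54 with CsA. Control replicate 2 at 48 h lay above control replicate 2 at 12 h, whereas with CsA the times did not overlap. With CsA, HSPH1 fell by 0.58 (SE 0.14, adjusted p = 0.025, a ratio of 1.50). In control the change was -0.37 (SE 0.14, adjusted p = 0.079), and it was called without control 48 h replicate 2 (-0.51, adjusted p = 0.034) and when the gene's probe sets were averaged (-0.60, adjusted p = 0.012). The CsA call was lost without CsA 12 h replicate 1, 2 or 3 (adjusted p = 0.087, 0.078 and 0.065) or CsA 48 h replicate 1 (0.079). Of the other HSPH1 probe sets, 208744_x_at gave -0.56 in control and -0.71 with CsA, both called, and 235573_at gave -0.89 in control, called, and -0.77 with CsA (adjusted p = 0.055).

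HSPA4L (205543_at) differed less between the times than HSPH1. It read 8.89, 8.73 and 8.93 in control and 8.57, 8.56 and 8.47 with CsA at 12 h, and 8.64, 8.48 and 8.66 in control and 8.62, 8.36 and 8.27 with CsA at 48 h. At 12 h every CsA array lay below every control array. The change from 12 h to 48 h was -0.26 in control (SE 0.11, adjusted p = 0.11) and -0.12 with CsA (SE 0.11, adjusted p = 0.50), and neither was called. The second HSPA4L probe set, 1556194_a_at, gave -0.08 and -0.01.

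HSP90AA1 encodes the inducible and HSP90AB1 the constitutive cytosolic Hsp90. HSP90AA1 (211969_at) read 15.02, 14.83 and 14.95 in control and 14.73, 14.84 and 14.83 with CsA at 12 h, then 14.01, 14.09 and 14.27 in control and 13.89, 14.04 and 14.28 with CsA at 48 h. The times did not overlap, while the treatments overlapped at 48 h and, by 1 array, at 12 h. It fell by 0.81 in control (SE 0.12, adjusted p = 0.0022, a ratio of 1.75) and by 0.73 with CsA (SE 0.12, adjusted p = 0.0059, a ratio of 1.66). Its 3 other probe sets gave changes from -0.57 to -1.26 in control and from -0.70 to -1.19 with CsA, all called. The probe sets of HSP90AA1 differed in the size of the change and not in its direction.

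HSP90AB1 (1557910_at) read 13.80, 13.84 and 13.75 in control and 13.88, 13.75 and 13.74 with CsA at 12 h. At 48 h it read 13.23, 13.42 and 13.40 in control and 13.24, 13.32 and 13.53 with CsA. The times did not overlap in either treatment. HSP90AB1 fell by 0.44 in control (SE 0.10, adjusted p = 0.0135) and by 0.43 with CsA (SE 0.10, adjusted p = 0.025), a ratio of 1.36 and 1.34 between 12 h and 48 h. The control call was lost without control 48 h replicate 1 (adjusted p = 0.051), and the CsA call without CsA 12 h replicate 1, 2 or 3 (0.092, 0.066 and 0.070) or CsA 48 h replicate 1 or 2 (0.085 and 0.069). Its 2 other probe sets gave -0.54 and -0.57 in control and -0.46 and -0.49 with CsA, all called.

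The small heat shock proteins went different ways. HSPB1 (201841_s_at), a holdase that also binds actin, read 14.08, 13.97 and 14.34 in control and 14.01, 13.88 and 14.14 with CsA at 12 h. At 48 h it read 13.82, 13.64 and 13.91 in control and 13.62, 13.63 and 13.84 with CsA. Both treatments were lower at 48 h on every array, by a mean of 0.34 (SE 0.13) and 0.32 (SE 0.13), yet neither difference was called (adjusted p = 0.073 and 0.12). Both were called with the replicate number as a block across times (adjusted p = 0.015 and 0.030), and the control one with a variance trend and robust moderation (0.045). The numbers were not shown to pair arrays across times, where deviations of same-numbered arrays correlated between -0.14 and 0.23. No conclusion is drawn from that block.

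CRYAB, the alpha-crystallin B chain, was the only member that was higher at 48 h. Its single probe set 209283_at read 11.09, 11.11 and 11.15 in control and 10.95, 11.06 and 10.94 with CsA at 12 h. At 48 h it read 11.65, 11.39 and 11.91 in control and 11.31, 11.32 and 11.32 with CsA. The CsA arrays at 48 h lay close together (SD 0.0065, against 0.26 in control) and below all 3 control arrays. CRYAB rose by 0.54 in control (SE 0.12, adjusted p = 0.013, a ratio of 1.45), while the difference with CsA was 0.33 (SE 0.12, adjusted p = 0.094). These changes were not shown to differ, since the CsA effect at 48 h minus that at 12 h was -0.21 (95% interval -0.59 to 0.18, adjusted p = 0.9999).

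**Figure D2:**
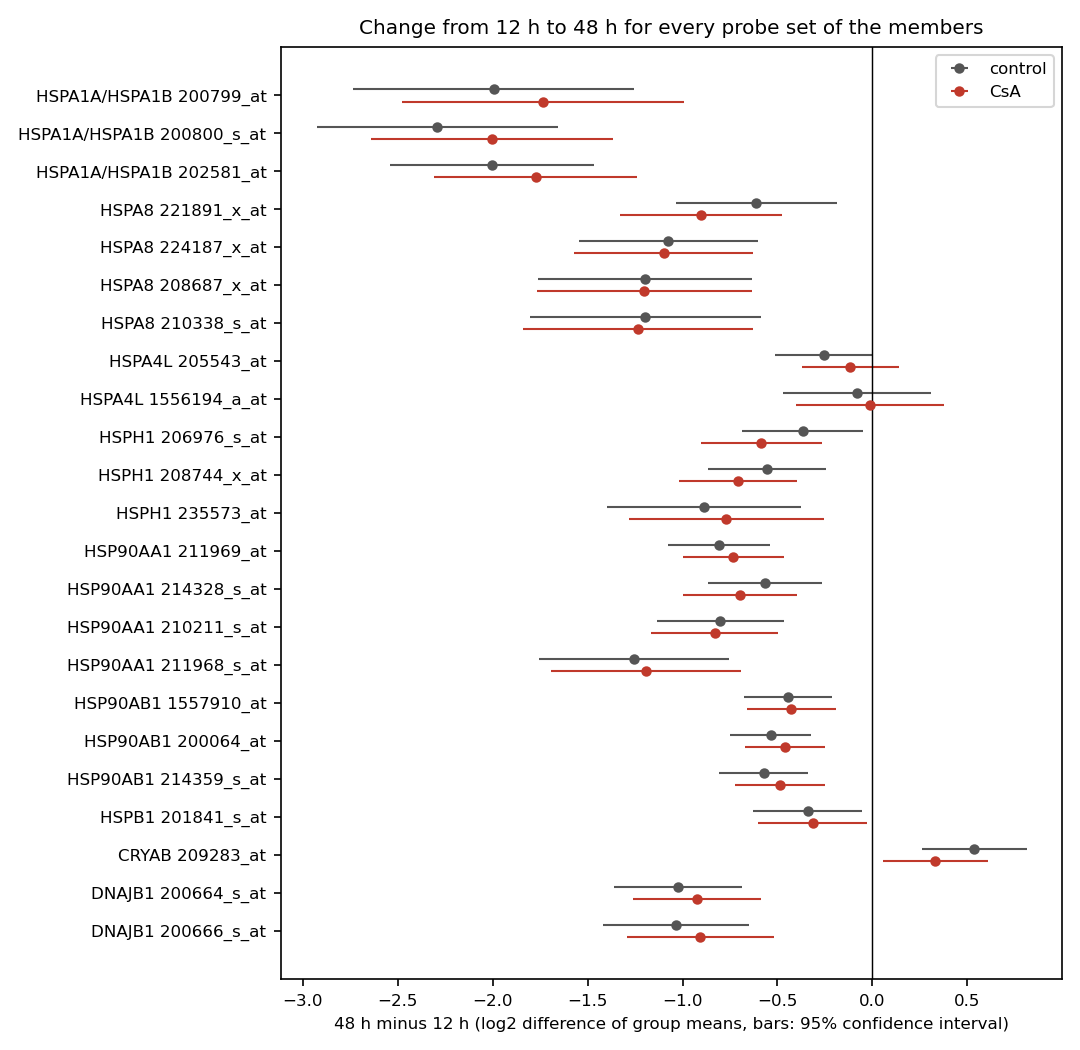
Difference between 48 h and 12 h (horizontal axis, log2) for each of the 23 probe sets of the 10 genes, in control (grey) and with CsA (red). Points are limma estimates with 95% intervals, probe sets are grouped by gene, and those of HSPA1A, HSPA1B and HSPA8 are shared with other annotated genes; 22 of 23 estimates lie below 0 in each treatment and CRYAB alone lies above.

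Counted over the 7 members with a probe set of their own, 6 were lower and 1 higher at 48 h in each treatment. In control 3 of the 7 were called lower and 1 higher, where 26.2% of all tested genes were called, 13.7% lower and 12.5% higher. With CsA 4 of the 7 were called lower and 0 higher, where 14.4% of all tested genes were called, 7.58% lower and 6.77% higher. The median difference of the members was -0.37 in control and -0.43 with CsA, and over all tested genes it was 0.01 in each. All 48 h arrays lay below all 12 h arrays for 5 of the 7 in control (25.2% of all tested genes) and for 5 of the 7 with CsA (18.9%). They lay above for CRYAB alone, 1 of the 7 in each treatment (24.9% and 16% of all tested genes). Over all 23 probe sets, 18 were called lower in each treatment, where 12.4% of all probe sets were called lower in control and 6.44% with CsA. Several of the 23 measure the same gene, so they are not independent and add no genes to the counts above. The count of members called with CsA dropped from 4 to 2 without CsA 12 h replicate 1, 2 or 3 or CsA 48 h replicate 1.

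The number of genes called between the times depended on single arrays. In control it was 2756, and 1575, 1502, 1322, 1421 and 1450 without control 12 h replicate 1, 2 or 3 or control 48 h replicate 1 or 2. Without control 48 h replicate 3 it was 3189. With CsA it was 1508, and 548, 596, 432, 568 and 784 without CsA 12 h replicate 1, 2 or 3 or CsA 48 h replicate 1 or 2, whereas without CsA 48 h replicate 3 it was 3885.

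Between CsA and control the members differed by little. At 12 h all 7 members with their own probe set were lower with CsA, from -0.32 for HSPA4L to -0.01 for HSP90AB1, with a median of -0.13 beside -0.01 for all tested genes, of which 54.7% were lower. At 48 h 5 of the 7 were lower, from -0.35 for HSPH1 to 0.03 for DNAJB1, with a median of -0.09 beside -0.02 for all tested genes, of which 54.7% were again lower. None of the 7 was called at 12 h or at 48 h, and limma called 0% of all tested genes in either comparison. In this fit, which leaves the numbered pairs out of account, 138 genes at 12 h and 265 at 48 h had an unadjusted p below 0.05. Each is a smaller share of the 10508 tested genes than 0.05. With the replicate number as a block, 765 genes at 12 h and 1297 at 48 h had such a p, each a larger share than 0.05. That block called 0.0285% of tested genes at 12 h and 0% at 48 h, none of them a member.

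HSPA4L had the largest estimate at 12 h, -0.32 (SE 0.11, 95% interval -0.57 to -0.06, unadjusted p = 0.019, adjusted p = 1 in limma). Its pairs gave -0.32, -0.17 and -0.46 at 12 h and -0.02, -0.12 and -0.39 at 48 h, below 0 in each of the 6. With the replicate number as a block, the 12 h estimate had SE 0.10 (95% interval -0.55 to -0.08, unadjusted p = 0.016, adjusted p = 0.56 in limma). At 48 h the HSPA4L difference was -0.18 (-0.43 to 0.07), and its second probe set gave -0.15 at 12 h and -0.08 at 48 h.

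HSPH1 and CRYAB had the largest estimates at 48 h. For HSPH1 CsA minus control was -0.35 (SE 0.14, 95% interval -0.67 to -0.04, unadjusted p = 0.033, adjusted p = 0.9994 in limma), with pairs of -0.33, -0.47 and -0.26, and at 12 h it was -0.13 (-0.45 to 0.18). For CRYAB it was -0.34 (SE 0.12, 95% interval -0.61 to -0.06, unadjusted p = 0.021, adjusted p = 0.9994 in limma), with pairs of -0.34, -0.07 and -0.60. At 12 h the CRYAB difference was -0.13 (-0.40 to 0.14), with pairs of -0.14, -0.04 and -0.21. Both genes were lower with CsA in all 6 pairs. The intervals above come from the fit that leaves the pairs out of account. With the replicate number as a block, HSPH1 at 48 h had SE 0.08 (95% interval -0.54 to -0.16, unadjusted p = 0.0031, adjusted p = 0.35 in limma). For CRYAB at 48 h the block gave SE 0.11 (95% interval -0.59 to -0.08, unadjusted p = 0.018, adjusted p = 0.37 in limma). Neither difference survived the adjustment over all genes in either fit.

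The Hsp90 genes and HSPB1 had small estimates against control, given first from the fit that leaves the pairs out of account. HSP90AA1 differed by -0.13 at 12 h (-0.40 to 0.13) and -0.06 at 48 h (-0.32 to 0.21). HSP90AB1 differed by -0.01 at 12 h (-0.23 to 0.22) and 0.01 at 48 h (-0.22 to 0.24). HSPB1 differed by -0.12 at 12 h (-0.40 to 0.17) and -0.09 at 48 h (-0.38 to 0.19), and was below 0 in all 6 pairs. With the replicate number as a block, the HSPB1 intervals were -0.29 to 0.06 at 12 h and -0.27 to 0.08 at 48 h. Those of HSP90AA1 were -0.33 to 0.06 and -0.25 to 0.14, and those of HSP90AB1 -0.19 to 0.18 and -0.17 to 0.20.

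**Figure D3:**
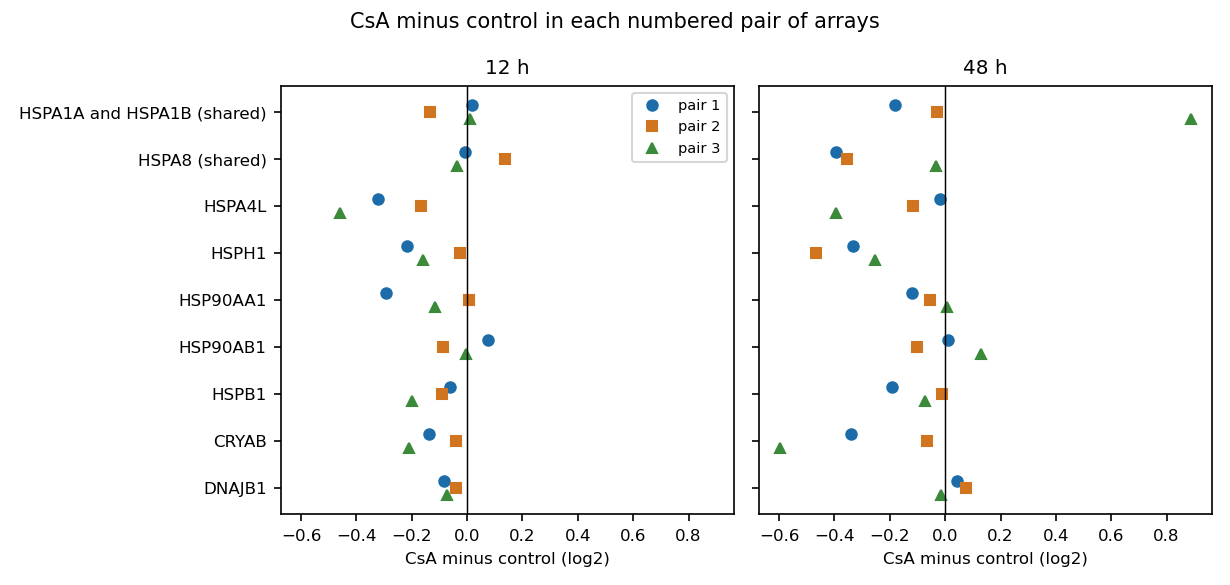
CsA minus control (horizontal axis, log2) for each numbered pair of arrays and each member's chosen probe set, at 12 h and 48 h. Each point is 1 pair, and HSPA4L, HSPH1, HSPB1 and CRYAB lie below 0 in all 6 pairs; the third pair at 48 h lies at 0.89 for the probe set of HSPA1A and HSPA1B.

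Read by pair, 5 of the 7 members were lower with CsA in all 3 pairs at 12 h, where 22.5% of all tested genes were, and 4 of the 7 at 48 h, where 16.2% were. The CsA arrays all lay below the control arrays for HSPA4L and CRYAB at 12 h, 2 of the 7 (6.57% of all tested genes), and for CRYAB at 48 h, 1 of the 7 (2.49%). For 0 of the 7 did they all lie above control, at 12 h (5.37%) or at 48 h (2%). The median over the members was -0.14, -0.04 and -0.16 in the 3 pairs at 12 h and -0.12, -0.07 and -0.07 at 48 h. No member's CsA effect was called as different between the times, where 0% of all tested genes were called and 162 had an unadjusted p below 0.05. With the replicate number as a block, 961 had such a p and 0% were called. The estimates ran from -0.22 for HSPH1 (95% interval -0.66 to 0.23) to 0.14 for HSPA4L (-0.22 to 0.49).

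The partners of these chaperones were counted on lists of related genes. There were 58 tested genes on 8 lists of heat shock factors, chaperone families and co-chaperones, and the Hsp70 list was drawn by family and not by compartment. Of the 58, 19 were called lower and 4 higher at 48 h in control, and 13 lower and 1 higher with CsA. Over all tested genes 13.7% were called lower and 12.5% higher in control, and 7.58% and 6.77% with CsA, and each list's counts stand beside these shares. The median of the 58 genes was -0.16 in control and -0.13 with CsA, beside 0.01 for all tested genes in each. None was called between CsA and control at either time. All of these comparisons use the same 12 arrays as the members.

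Among the regulators, HSF1, the factor that switches on the heat shock genes, was at 6.32 ± 0.17 in control at 12 h and 6.40 ± 0.00 at 48 h (SD, n = 3), a difference of 0.08 (adjusted p = 0.61 in limma). HSF4 differed by 0.07 (adjusted p = 0.56), and HSBP1, which binds the trimerisation region of HSF1, fell by 0.64 in control (adjusted p = 0.041), with -0.60 under CsA (adjusted p = 0.070). Of 8 other heat-inducible genes, 5 were lower and 3 higher at 48 h in each treatment. Only IER5 and BAG3 were called, both lower in both treatments, IER5 by 0.76 in control and 0.71 with CsA (adjusted p = 0.0063 and 0.014). HMOX1 was higher by 0.84 and 0.18 (adjusted p = 0.13 and 0.78 in limma). ZFAND2A, named after its values were seen, was higher by 2.13 and 1.45 (adjusted p = 0.096 and 0.28 in limma).

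Hsp70 and its helpers changed in part. Of 5 other Hsp70 and Hsp110 genes, HSPA14, HSPA2 and HSPA12A fell in control, by 0.99, 0.95 and 1.60, and HSPA13 rose by 1.07. With CsA only HSPA14 was called among them (-0.98, adjusted p = 0.0059), and HSPA2 gave -0.95 (adjusted p = 0.0506). Of 14 tested J-domain genes 3 were called lower and 1 higher in control and 2 lower with CsA. In control 8 of the 14 were above 0, with a median of 0.0069. DNAJA1, a main partner of HSPA8, fell by 1.09 in control and 0.88 with CsA, and DNAJB6 by 0.93 and 0.67. The others, DNAJC9 (-0.84) and DNAJC12 (2.66), were picked out after their values were seen.

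Of 9 nucleotide exchange factors and regulators of Hsp70, BAG3, which links Hsp70 to selective autophagy, fell by 0.95 in control (adjusted p = 0.0022) and by 1.00 with CsA (adjusted p = 0.0046). BAG1, named after its values were seen, rose by 0.40 in control. Of 13 Hsp90 co-chaperones 5 were called lower and 0 higher in control, and 6 lower and 0 higher with CsA. Over all tested genes 13.7% and 7.58% were called lower. Of the 13, 3 were above 0 in control and 2 with CsA. FKBP4, an immunophilin of steroid receptor complexes, fell by 0.91 (adjusted p = 0.0010) and by 0.57 (adjusted p = 0.0079), FKBP5 fell by 0.45 in control, and CHORDC1 and UNC45A fell with CsA by 1.08 and 0.44. STIP1, CDC37 and PTGES3, named after their values were seen, fell in both treatments.

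Of 7 tested subunits of the chaperonin CCT, which folds actin and tubulin, all 7 were lower at 48 h in each treatment, where 49.1% of all tested genes were lower in control and 49% with CsA. Of the 7, 5 were called lower in control (13.7% of all tested genes) and 3 with CsA (7.58%). The median of the 7 was -0.40 and -0.29. CCT3 fell by 0.73 in control and 0.61 with CsA, and CCT7 and CCT2 fell in control by 0.40 and 0.32. CCT5 and CCT6A, which fell in both treatments, were named after their values were seen. Of 5 prefoldin subunits PFDN1 fell in control, by 0.47. Both remaining small heat shock genes that could be tested were higher at 48 h in control, HSPB2, which lies beside CRYAB, by 0.59 (adjusted p = 0.015, and 0.71 with CsA, adjusted p = 0.012) and HSPB8 by 0.40 (adjusted p = 0.089). HSPB8 gave -0.01 with CsA.

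**Figure D4:**
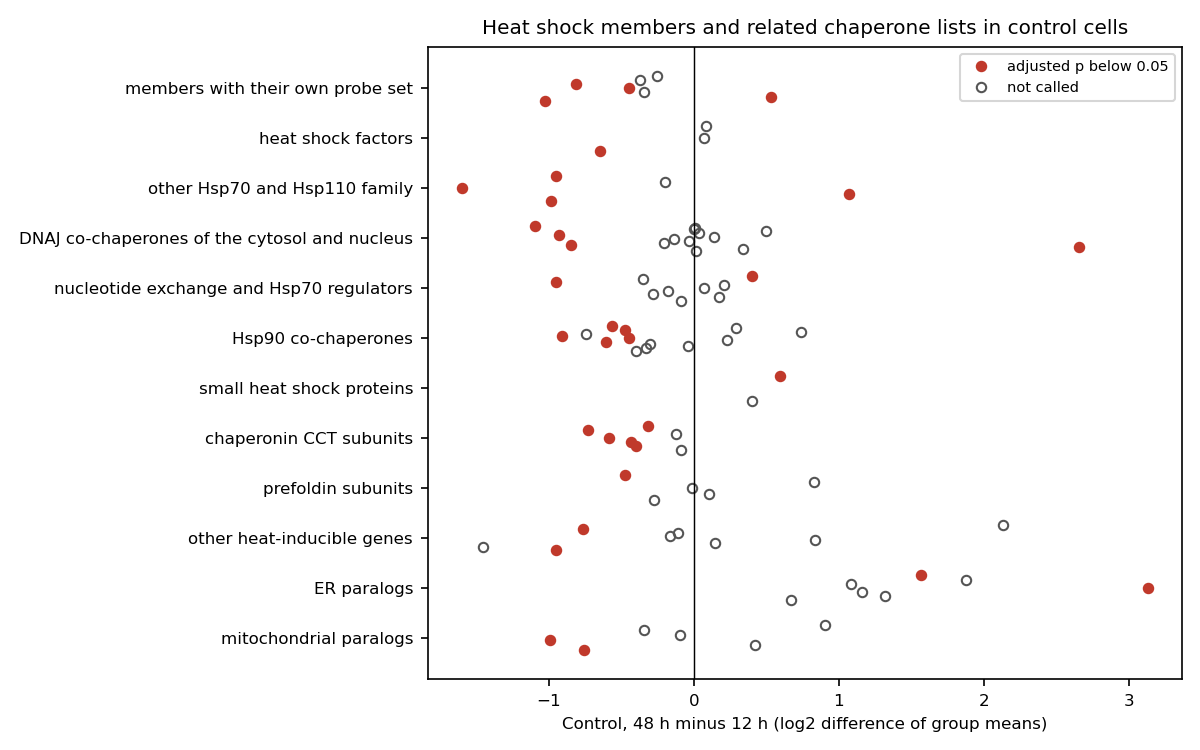
Difference between 48 h and 12 h in control cells (log2) for the tested genes of each list. Each point is 1 gene, red where limma's adjusted p was below 0.05; all points of the CCT subunits lie below 0 and all points of the ER paralogs above 0.

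Lists of chaperones of the endoplasmic reticulum and of mitochondria were counted in the same way. All 7 tested chaperones of the endoplasmic reticulum were higher at 48 h in control, with a median of 1.32, where 49.1% of all tested genes were lower. HSPA5 (1.57, adjusted p = 0.045) and DNAJB9 (3.13, adjusted p = 0.025) were called, where 12.5% of all tested genes were called higher. With CsA all 7 were higher at 48 h, with a median of 0.57, and none was called. The 48 h arrays of these called genes were widely spread. The SD of DNAJB9 was 1.57 in control and 1.76 with CsA at 48 h, against 0.29 and 0.25 at 12 h. For HSPA5 it was 0.65 and 1.14 at 48 h, against 0.42 and 0.25 at 12 h. Against control, all 7 were higher with CsA at 12 h, with a median of 0.71, where 54.7% of all tested genes were lower. At 48 h 6 of the 7 were lower with CsA than in control, with a median of -0.08. None was called between CsA and control at either time. Of 6 mitochondrial paralogs 4 were lower and 2 higher at 48 h in each treatment. HSPE1 and GRPEL1 fell in both treatments, HSPE1 by 0.99 and 0.88 and GRPEL1 by 0.75 and 0.69. HSPA9 was higher by 0.90 in control and 0.48 with CsA, neither called (adjusted p = 0.052 and 0.29 in limma). No test compared these lists with the cytosolic members.

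Over the 12 arrays the genes with the profile most like the mean of the 7 standardised member profiles were MALSU1 (Pearson r 0.98), UFD1 (0.97), EED, ING2 and CUL1 (0.96 each). Those most like the HSPA1A and HSPA1B probe set were DPY19L1, HENMT1 and HAT1 (0.99 each) and CCSAP and THOC7 (0.98 each). The arrays fall into 12 h and 48 h, so these values describe likeness across that split. The like genes just named, which are not members, all had lower means at 48 h in both treatments. The members' own correlation with their mean profile, which each helps to make, was from 0.76 to 0.93, except for CRYAB at -0.49.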

How the data were processed

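Total RNA of 12 HK-2 cultures was measured on arrays of 54675 probe sets. The deposited values are log2 intensities that the authors normalized with GCRMA, per the submitters' processing notes; of its version and settings no source used here gives any detail. GCRMA shrinks dim probes towards a floor, which compresses their differences, and assumes that most genes are alike between arrays.

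Of the probe sets, 41091 carried 1 gene symbol, 1801 several, 11721 none and 62 were array controls. A gene was represented by its single-symbol probe set with the highest mean, and kept when it exceeded 4 on all 3 arrays of any group, which left 10508 genes. Differences between 4 group means were fitted with limma 3.58.1 (R 4.3.3; lmFit, eBayes) and adjusted by Benjamini-Hochberg. Shared probe sets were tested in a fit of 21028 probe sets, added after the data were seen. Tested on simulated data for 48 h against 12 h in control over 10508 genes, the fit recovered 66% of changes of 1 and 95% of changes of 2 on the log2 scale. It made 15 false calls. The simulation drew arrays independently, gave each gene 1 spread in all groups and changed few genes. The real arrays differ in each of these, so the rates need not hold for them. The number of arrays limits the precision.

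The members and lists were chosen with earlier results of these data known. From each list, up to 4 genes with the largest moderated statistic for CsA at each time could be named, heat shock factors always; the 5 genes most like the members were named by correlation. Deviations of same-numbered arrays from their group means correlated at 0.37, 0.53 and 0.59 at 12 h and at 0.78, 0.54 and 0.74 at 48 h, so the numbers paired CsA with control within a time; this comes from the data. Across times the correlations were 0.02, -0.02 and 0.06 in control and 0.23, -0.14 and 0.05 with CsA, so no pairing across times was shown. Alternatives were the filter, the mean over probe sets, moderation, centring, the replicate block, the arrays of 1 time, and leaving out arrays or pairs.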

Additional observations from a re-analysis of the deposited data

How the results depend on the processing

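No member was called between CsA and control under any alternative. The count of genes called at 12 h went from 0 to 1 without the filter, 3 with the replicate block, 1 with the 12 h arrays alone and 5 with those and the replicate block. With CsA, 1508 genes called between the times became 988 without the filter, 2394 with the replicate block across times and 2473 of every probe set, and in control 2756 became 4809 of every probe set. Averaging probe sets moved the members' median change in control to -0.52 and turned the HSP90AA1 interaction to -0.0055, and centring arrays turned HSP90AB1 at 12 h to 0.0021. The HSPA8 control call was lost without the filter (adjusted p = 0.12) and with centring (0.057). The replicate block changed no other call of a member than HSPB1 between times, where the numbers were not shown to pair arrays. The cause was not tested.

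Leaving out 1 array or 1 numbered pair, genes called between the times ranged from 819 to 4835 in control and from 198 to 4485 with CsA, members called from 2 to 5 and from 1 to 6, and their median from -0.48 to -0.35 and from -0.51 to -0.36. For CsA minus control at 12 h the ranges were -0.18 to -0.089 for the members' median, -0.050 to 0.037 for HSP90AB1, -0.20 to 0.057 for DNAJB1, -0.099 to 0.078 for the HSPA1A and HSPA1B probe set and -0.021 to 0.070 for that of HSPA8. At 48 h they were -0.17 to -0.032 for the median, -0.16 to 0.031 for HSP90AA1, -0.069 to 0.075 for HSP90AB1, -0.011 to 0.11 for DNAJB1 and -0.25 to 0.51 for the HSPA1A and HSPA1B probe set. For the difference between these effects they were -0.043 to 0.11 for the median, -0.027 to 0.16 for HSP90AA1, -0.063 to 0.080 for HSP90AB1, -0.080 to 0.11 for HSPB1, -0.022 to 0.23 for DNAJB1 and -0.21 to 0.55 for the HSPA1A and HSPA1B probe set. Without a numbered pair at 12 h the CRYAB rise in control lost its call (adjusted p = 0.070, 0.062 and 0.063), as did HSP90AB1 in control (0.067, 0.072 and 0.061), HSP90AA1 with CsA without the third pair (0.056) and DNAJB1 with CsA without the first (0.0515). With CsA, HSPA8 lost its call without a pair at 12 h (0.092, 0.091 and 0.10) or the second at 48 h (0.072), HSPH1 without a pair at 12 h (0.118, 0.11 and 0.0965) or the first at 48 h (0.080), and HSP90AB1 without a pair at 12 h (0.14, 0.098 and 0.10) or the first or second at 48 h (0.066 and 0.088). In control, HSPA8 lost its call without a pair at 12 h (0.14, 0.12 and 0.165) or the second at 48 h (0.11), and HSPH1 gained one without the latter (0.032). Without the third pair at 48 h, HSPB1 was called in both treatments (0.034 and 0.042) and CRYAB with CsA (0.026).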
